A study of Mus musculus with 8 samples.

Results

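MicroRNA genes numbered below 500 were followed in mouse ovarian cancers under VEGF blockade. They were the genes of the deposited array table whose symbol begins with Mirlet7, or with Mir and a number under 500, with host genes of the hg type left out. Only probe sets (groups of probes that read 1 transcript) annotated with exactly 1 symbol were used, and where a gene had several the brightest on average stood for it. This gave 219 microRNA genes of 11667 genes tested. The groups were 4 tumours of B6C3F1 mice injected intraperitoneally 2 times a week with anti-VEGF antibody and 4 tumours of B6C3F1 mice given the rat IgG isotype control in the same way, so both groups carried injected cells and injected antibody. The tumours grew from HM-1 cells, an ovarian cancer line of the mouse, placed under the skin of the right flank. The sample labels put the first injection 3 days after the cells and the collection at a long tumour diameter of 1.5 cm, while the study's methods give a later first day. Tumours were thus matched on size and not on time, every tumour came from 1 cell line, and no label gave the sex or age of the mice. Each tumour had 1 array.

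A microRNA is a short RNA that lowers the output of messenger RNAs. It is cut from a long primary transcript, first in the nucleus by Drosha with Dgcr8 into a hairpin, which Xpo5 exports, and then in the cytoplasm by Dicer. The mature strand is loaded into an Argonaute protein and finds its targets mainly through its seed, bases 2 to 8 from its 5′ end. Many microRNA genes lie in clusters that are transcribed together, or inside the introns of longer host genes. In tumours, microRNAs are known for responses to low oxygen (miR-210), for keeping cells epithelial (the miR-200 family) and for growth in endothelium and leucocytes. The array reads the region annotated as the microRNA gene, which is short, and whether a signal came from the primary transcript, the hairpin or the mature strand was not tested. RNA had been taken up on RNeasy columns, which are made to keep longer RNA, and in a whole tumour fewer cells of a type cannot be told apart from less RNA per cell.

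The arrays differed in ways that reach every gene. The standard deviation over the 11667 genes was 1.99 to 2.08 on the anti-VEGF arrays and 1.12 to 1.66 on the control arrays, lowest on control array 3, whose correlation with the other arrays was 0.774 to 0.869. On the anti-VEGF arrays bright genes tended to be higher and dim genes lower, with a median log2 fold change (anti-VEGF over control) of -0.44 over all genes on the deposited scale and -0.03 after a further quantile normalisation. All 21 measured markers of pancreatic acinar cells fell, and their mean log2 level was 4.23 to 8.92 in anti-VEGF tumours, against 8.78 to 10.24 in control tumours. Of 8 macrophage markers, 7 rose on the deposited scale and 2 after quantile normalisation again. The 9 measured markers of tumour epithelium had a mean log2 level of 7.09 to 7.50 in anti-VEGF tumours and 6.78 to 7.45 in control tumours. The part of these differences in the results on microRNA genes was not tested. For this reason fold changes on the deposited scale are joined, for many of the microRNA genes, by the fold change after quantile normalisation again or by the distance from genes of the same level, which is the log2 fold change of a gene minus the median log2 fold change of the 200 other genes nearest to it in mean level. A call given on the deposited scale alone need not hold after quantile normalisation again.

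Of the 219 genes, 190 were found in the RefSeq table of mouse microRNAs (build GRCm38.p6), from which the mature sequences were taken. The first set holds strands that share a seed with a gene that moved on both scales, so that relatives can be compared. Capitals mark the seed, and the chromosomal position is that of the mature strand. The miR-15 and miR-16 family, with the seed AGCAGCA, contained the gene with the clearest increase and a pair of genes that fell on the deposited scale.
mmu-miR-15a-5p (*Mir15a*, chr14:61632075-61632096, minus strand, inside the long non-coding gene *Dleu2*): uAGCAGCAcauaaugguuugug
mmu-miR-15b-5p (*Mir15b*, chr3:69009775-69009796, plus strand): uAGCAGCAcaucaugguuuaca
mmu-miR-16-5p (*Mir16-2*, chr3:69009918-69009939, plus strand): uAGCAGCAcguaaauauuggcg
The seed AUUGCAC was shared by strands of 5 measured genes, 3 of which are shown because they sat farthest from genes of their level.
mmu-miR-92b-3p (*Mir92b*, chr3:89227126-89227147, minus strand): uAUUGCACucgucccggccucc
mmu-miR-92a-3p (*Mir92-2*, chrX:52741854-52741874, minus strand, in the miR-106a to miR-363 cluster): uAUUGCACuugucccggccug
mmu-miR-363-3p (*Mir363*, chrX:52741697-52741718, minus strand, in the same cluster): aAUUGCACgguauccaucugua
The miR-181 strands share the seed ACAUUCA, and the pair on chromosome 8 is shown because both of its genes fell on both scales.
mmu-miR-181c-5p (*Mir181c*, chr8:84178924-84178945, minus strand): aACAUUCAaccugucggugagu
mmu-miR-181d-5p (*Mir181d*, chr8:84178759-84178781, minus strand): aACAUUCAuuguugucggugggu

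The second set holds other strands that the results turn on, with relatives for comparison. Of the epithelial miR-200 family, miR-200a and miR-141 share 1 seed and miR-200b and miR-200c another, and the seeds differ by 1 base.
mmu-miR-200a-3p (*Mir200a*, chr4:156054911-156054932, minus strand): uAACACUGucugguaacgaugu
mmu-miR-141-3p (*Mir141*, chr6:124717917-124717938, minus strand): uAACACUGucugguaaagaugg
mmu-miR-200b-3p (*Mir200b*, chr4:156055685-156055706, minus strand): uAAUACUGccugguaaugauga
mmu-miR-342-3p (*Mir342*, chr12:108658680-108658702, plus strand, inside the gene *Evl*): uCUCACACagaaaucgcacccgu
mmu-miR-10b-5p (*Mir10b*, chr2:74726074-74726096, plus strand, among the *Hoxd* genes): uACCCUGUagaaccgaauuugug
mmu-miR-186-5p (*Mir186*, chr3:157544285-157544306, plus strand, inside the gene *Zranb2*): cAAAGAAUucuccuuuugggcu
mmu-miR-23a-3p (*Mir23a*, chr8:84208563-84208583, plus strand): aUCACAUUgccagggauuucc
mmu-miR-27a-3p (*Mir27a*, chr8:84208727-84208747, plus strand, beside *Mir23a*): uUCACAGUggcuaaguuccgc
The seeds of miR-23a and miR-27a differ, although their genes lie side by side on chromosome 8.

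On the deposited scale most microRNA genes were lower in anti-VEGF tumours. By limma with Benjamini-Hochberg adjustment over all 11667 genes (adjusted p under 0.05), 137 of 219 fell, or 62.6%, beside 46.6% of all genes, and 2 rose, or 0.913%, beside 19.1% of all genes. The 2 that rose were *Mir15a* and *Mir27a*. The median log2 fold change was -0.91 over the 219 genes and -0.44 over all genes, with a range of -2.34 to 1.15 among the microRNA genes. In 116 of the 219 every anti-VEGF value lay below every control value, or 53%, beside 41.5% of all genes, and in 2 every anti-VEGF value lay above, or 0.913%, beside 19.8% of all genes.

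These genes were dim. Their median level over the 8 arrays was 3.71 on the log2 scale, against 4.80 for all genes. The median of the 219 values on an array was 3.43, 3.2, 3.18 and 3.22 on anti-VEGF arrays 1 to 4, against 4.38, 3.94, 4.46 and 3.79 on control arrays 1 to 4, so the groups did not overlap. The medians of all genes did not overlap either, at 4.51 to 4.73 on anti-VEGF arrays and 4.86 to 5.16 on control arrays. The control tumours also varied more. The median standard deviation within a group was 0.19 in anti-VEGF tumours and 0.56 in control tumours, and it was larger in control tumours for 197 of the 219 genes. Over all genes the medians were 0.15 in anti-VEGF tumours and 0.40 in control tumours. The standard deviation was larger in control tumours for 90.1% of all genes, beside 90% of the microRNA genes. Control array 3 held the highest of the 8 values for 92 microRNA genes and control array 1 for 77. Without control array 3, 151 of 219 fell and 3 rose, and the share of all genes called in that fit is not given here.

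**Figure D1:**
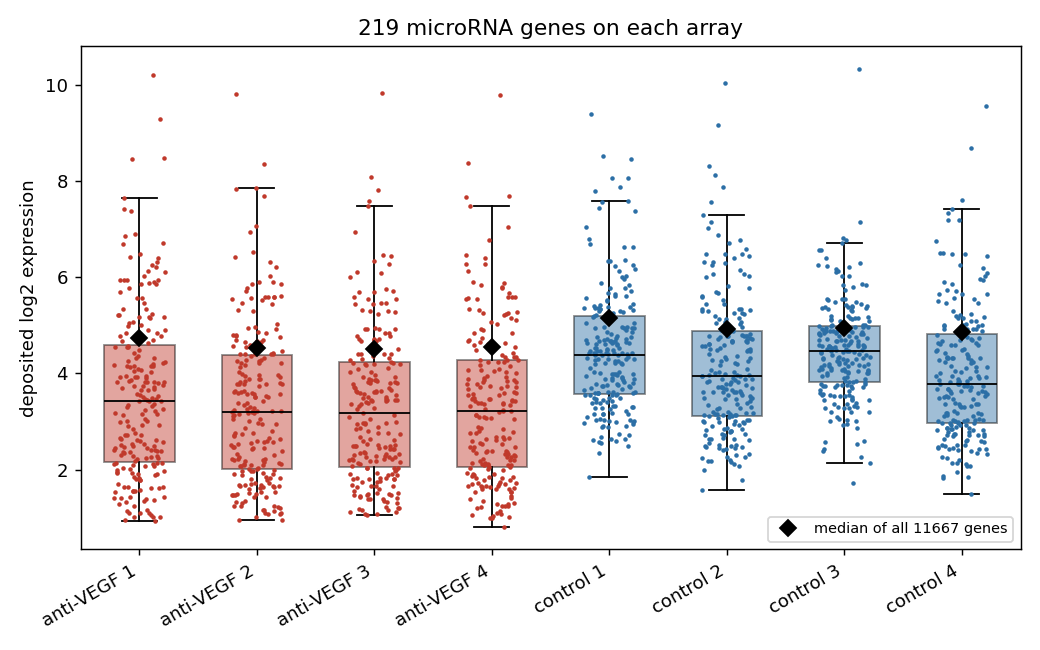
Deposited log2 expression (y axis) of the 219 microRNA genes on each of 4 anti-VEGF and 4 control arrays (x axis), with 1 point per gene, a box from the lower to the upper quartile with the median as a line, whiskers to the farthest value within 1.5 box lengths, and a diamond at the median of all 11667 genes. The medians of the microRNA genes lie between 3.18 and 3.43 on the anti-VEGF arrays and between 3.79 and 4.46 on the control arrays, below the diamond on every array.

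Beside genes of their own level, the shift of the microRNA genes was small. The median distance from the same-level median was -0.09, and 91 of 219 genes lay above it, or 41.6%. More of them lay far out than of all genes, in both directions. 19 microRNA genes lay above 95% of the 200 genes of their level, or 8.68%, beside 4.93% of all genes, and 32 lay below 95% of them, or 14.6%, beside 5.38% of all genes. No test was made of these shares. The 229 microRNA genes numbered 500 and above had 27 above and 28 below (11.8% and 12.2%), and the 64 small nucleolar RNA genes had 17 above and 10 below (26.6% and 15.6%), with a median distance of 0.00 and 0.11.

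The contrast with other genes went with how bright a microRNA gene was. When all genes were split into 3 equal parts by mean level, 136 microRNA genes were in the dimmest part, where 109 fell (80.1%, against 90.6% of the other genes there). In the middle part 22 of 61 fell (36.1%, against 45.1%). In the brightest part 6 of 22 fell (27.3%, against 4.42%) and none rose, against 51.6% of the other bright genes. The median log2 fold change in the brightest part was -0.26 for the microRNA genes and 0.60 for the other genes. In the dimmest part it was -1.25 for the microRNA genes and -1.07 for the others, and in the middle part -0.48 and -0.44. The median of the microRNA genes was thus the lower one in each part, and the gap was widest in the brightest. No test was made of these differences.

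**Figure D2:**
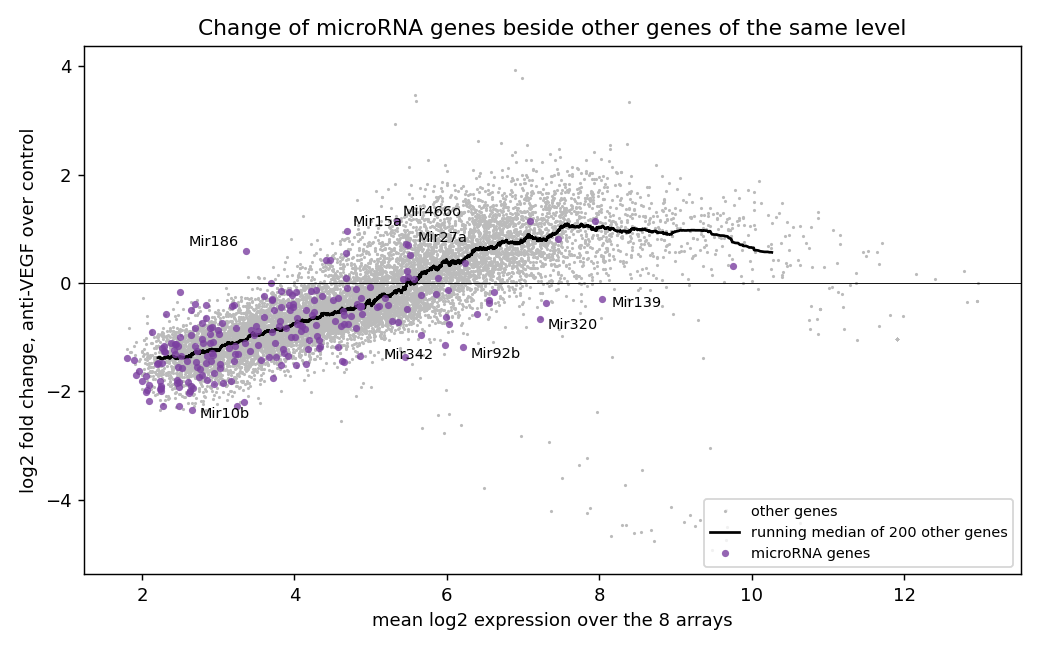
Log2 fold change, anti-VEGF over control (y axis), against mean log2 expression over the 8 arrays (x axis) for the 219 microRNA genes and the other genes, with the running median of 200 other genes as a line. The labelled bright genes *Mir92b*, *Mir342*, *Mir320* and *Mir139* lie between -1.60 and -1.31 from the same-level median.

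After quantile normalisation again, 17 of 219 microRNA genes fell (7.76%, beside 4.45% of all genes) and 4 rose (1.83%, beside 7.47%). Of the 137 that fell on the deposited scale, 14 also fell here, and 28 had a log2 fold change above 0. *Mir15a* was the 1 gene that rose on both scales. These 15 genes, picked out after their values were seen, are *Mir15a* and, from the largest decrease on the deposited scale, *Mir10b*, *Mir28c*, *Mir470*, *Mir1a-2*, *Mirlet7f-2*, *Mir471*, *Mir92-2*, *Mir365-1*, *Mir200a*, *Mir92b*, *Mir342*, *Mir181c*, *Mir181d* and *Mir187*. After cyclic loess, 12 of the 15 kept their call. In all 17 fits over all genes, 8 of the 15 kept call and direction, namely *Mir10b*, *Mir15a*, *Mir181c*, *Mir200a*, *Mir28c*, *Mir342*, *Mir365-1* and *Mir92-2*. The fits on deposited values and after quantile normalisation again, by which the 15 were picked, are among these and could not remove any. The mean of all probe sets left the values of the 15 unchanged.

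**Figure D3:**
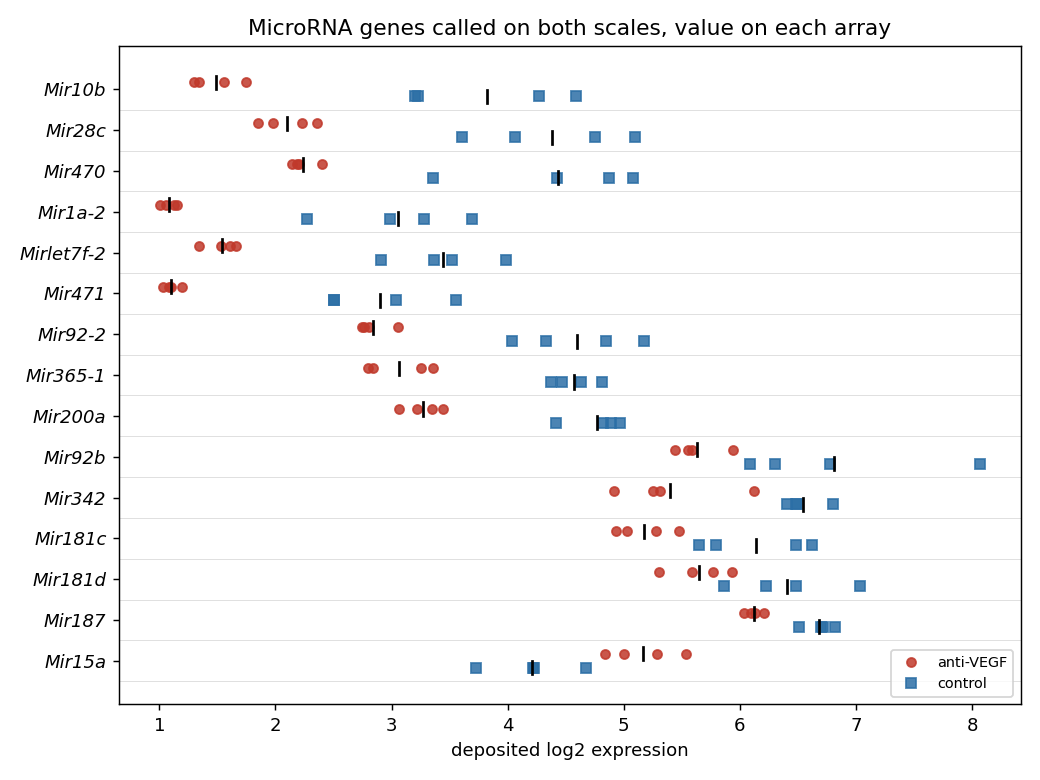
Deposited log2 expression (x axis) on each array of the 15 microRNA genes (y axis) called in the same direction on the deposited values and after quantile normalisation again, with anti-VEGF tumours as circles above, control tumours as squares below and a bar at each mean of 4. The groups do not overlap for 14 of the 15 genes, the exception being *Mir181d*, and *Mir15a* is the 1 gene with the anti-VEGF tumours on the right.

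*Mir15a* was the gene that stood out upward. Its product is known for restraining the cell cycle and cell survival, and the gene lies in *Dleu2*, which was not analysed here. *Mir15a* had 5.01, 5.54, 5.29 and 4.84 on anti-VEGF arrays 1 to 4, against 3.73, 4.22, 4.23 and 4.68 on control arrays 1 to 4, so that the lowest anti-VEGF tumour lay just above the highest control tumour. The log2 fold change was 0.95 ± 0.23 (SE) with an adjusted p of 0.00589 by limma, and 1.48 with an adjusted p of 0.0267 after quantile normalisation again. It lay 1.45 above the median of its level and above all 200 genes compared. The relatives that carry its seed did not share this change. *Mir16-2* had 1.93, 2.75, 2.30 and 2.10 in anti-VEGF tumours, against 3.77, 3.55, 3.96 and 3.11 in control tumours, and a log2 fold change of -1.33 ± 0.24 (SE) with an adjusted p of 0.00177 by limma, which was -0.19 (adjusted p 0.563) after quantile normalisation again. *Mir15b*, its neighbour on chromosome 3, had a log2 fold change of -1.13 on the deposited scale and -0.02 after quantile normalisation again. Its call on the deposited scale was lost without anti-VEGF 2 or anti-VEGF 4, when the log2 fold change was -1.0 (adjusted p 0.0568) or -0.99 (adjusted p 0.058) by limma.

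*Mir23a* and *Mir27a*, made from 1 primary transcript and known in vessel sprouting and under low oxygen, both had higher means in anti-VEGF tumours, and *Mir27a* passed the test on the deposited scale. *Mir27a* had 6.42, 5.59, 5.69 and 5.59 in anti-VEGF tumours, against 5.20, 4.48, 5.12 and 5.65 in control tumours. The groups overlapped, since control 4 lay above 2 of the anti-VEGF tumours. Its log2 fold change was 0.71 ± 0.27 (SE) with an adjusted p of 0.0403 by limma, and 0.79 with an adjusted p of 0.104 after quantile normalisation again. The call was lost when any 1 of 7 arrays was left out, all but control 4, with log2 fold changes of 0.50 to 0.89 over the 8 fits, for example 0.51 (adjusted p 0.112) without anti-VEGF 1. *Mir23a* had 5.87, 4.66, 4.67 and 4.64 in anti-VEGF tumours, against 3.87, 4.73, 4.31 and 4.70 in control tumours, with anti-VEGF 1 far above the other 3. The log2 fold change was 0.56 ± 0.31 (SE) (adjusted p 0.126 by limma), and 1.12 (adjusted p 0.0744) after quantile normalisation again. It was 1.04 above the median of its level, and without anti-VEGF 1 its log2 fold change was 0.26 (adjusted p 0.352) by limma.

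*Mir186* was farthest above its level, at 1.63, although it did not pass the test on the deposited scale. It had 2.31, 4.21, 4.03 and 4.08 in anti-VEGF tumours, against 2.91, 2.80, 3.56 and 3.02 in control tumours. Anti-VEGF 1 was below all controls, and the other 3 anti-VEGF tumours were above all of them. Its log2 fold change was 0.58 ± 0.39 (SE) with an adjusted p of 0.197 by limma on the deposited scale, and 1.53 with an adjusted p of 0.0356 after quantile normalisation again. Without anti-VEGF 1 it passed on the deposited scale, with 1.03 (adjusted p 0.00518) by limma. *Mir15a*, *Mir466o*, *Mir466n* and *Mir23a* were next above their level, and *Mir466n* lay 1.19 above it with a log2 fold change of -0.17 on the deposited scale and 0.95 (adjusted p 0.0178) after quantile normalisation again. *Mir142*, a microRNA of blood cells, was 1.0 above its level. It had 5.57, 4.41, 4.30 and 4.24 in anti-VEGF tumours, against 4.53, 4.0, 4.82 and 3.46 in control tumours, and the groups overlapped (log2 fold change 0.43 ± 0.36 (SE), adjusted p 0.299 by limma). Without anti-VEGF 1 this was 0.11 (adjusted p 0.754), and without control 4 0.18 (adjusted p 0.649). After quantile normalisation again *Mir142* had 0.97 and did not pass (adjusted p 0.0751 by limma). By limma it passed after cyclic loess, at 1.01 (adjusted p 0.0399), and after median centring, at 0.84 (adjusted p 0.0478).

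Downward, the bright genes *Mir92b* and *Mir342* were farthest below their level. *Mir92b*, of the miR-92 family known in cell growth, had 5.94, 5.58, 5.44 and 5.55 in anti-VEGF tumours, against 8.06, 6.77, 6.30 and 6.09 in control tumours, without overlap and with control 1 well above the other controls. The log2 fold change was -1.18 ± 0.37 (SE) (adjusted p 0.0178 by limma), -1.62 after quantile normalisation again (adjusted p 0.0367) and -1.60 from the median of its level. *Mir342*, which lies in *Evl* and is found in lymphoid and myeloid cells, had 6.12, 5.31, 4.91 and 5.25 in anti-VEGF tumours, against 6.80, 6.49, 6.41 and 6.48 in control tumours, again without overlap. It had a log2 fold change of -1.15 ± 0.25 (SE) (adjusted p 0.00346 by limma), and it was -1.54 from the median of its level. Over the 8 lymphocyte markers measured the log2 fold change had a median of -0.65 and the distance from their level one of 0.08, and the part of lymphocytes in the value of *Mir342* was not tested.

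*Mir320*, *Mir139* and *Mir338* completed the 5 farthest below their level, at -1.46, -1.31 and -1.25. *Mir320* had 7.38, 6.95, 6.45 and 6.77 in anti-VEGF tumours, against 8.51, 7.88, 6.18 and 7.61 in control tumours, where control 3 was below every anti-VEGF tumour and the other 3 controls were above all of them. It did not pass on the deposited scale (log2 fold change -0.66 ± 0.42 (SE), adjusted p 0.183 by limma) and passed after quantile normalisation again (-1.35, adjusted p 0.0327), and without control 3 it passed on the deposited scale too, with -1.11 (adjusted p 0.00539) by limma. *Mir139* had 8.48, 7.84, 7.59 and 7.69 in anti-VEGF tumours, against 9.38, 8.12, 6.56 and 8.68 in control tumours, with the same low value on control 3 (log2 fold change -0.29 ± 0.49 (SE), adjusted p 0.608 by limma). This was -0.83 (adjusted p 0.0355) without control 3, 0.11 (adjusted p 0.845) without control 1 and 0.12 after median centring. After quantile normalisation again *Mir139* had -1.06 (adjusted p 0.0888), and after cyclic loess it passed, at -1.27 (adjusted p 0.0399 by limma). *Mir338*, a microRNA of glia and neurons inside *Aatk*, had 5.16, 4.66, 4.40 and 4.85 in anti-VEGF tumours, against 6.33, 6.31, 6.78 and 5.08 in control tumours, and the highest anti-VEGF tumour exceeded control 4. The log2 fold change was -1.36 ± 0.33 (SE) (adjusted p 0.00568 by limma), and -1.58 after quantile normalisation again, where it did not pass (adjusted p 0.087).

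The largest decreases on the deposited scale came from dim genes. *Mir10b*, which lies among the *Hoxd* genes and is known from cell migration in cancer, had 1.55, 1.34, 1.75 and 1.30 in anti-VEGF tumours, against 4.27, 3.2, 4.59 and 3.23 in control tumours. Its log2 fold change was -2.34 ± 0.31 (SE) (adjusted p 0.000932 by limma), -1.31 after quantile normalisation again (adjusted p 0.0257), and -1.02 from the median of its level. *Mir28c* had 2.36, 1.98, 2.23 and 1.85 in anti-VEGF tumours, against 4.75, 4.07, 5.10 and 3.61 in control tumours, a log2 fold change of -2.28 ± 0.30 (SE), which was -1.42 (adjusted p 0.0282 by limma) after quantile normalisation again. Both genes lay below all 200 genes of their level. The other 8 of the 10 largest non-overlapping decreases were *Mir466*, *Mir374c*, *Mir470*, *Mir450b*, *Mir302c*, *Mir384*, *Mir465* and *Mir452*, with log2 fold changes of -2.28 to -1.99. Of these 8, *Mir470* passed after quantile normalisation again. *Mir374c* had 1.09, 1.16, 1.23 and 1.08 in anti-VEGF tumours, against 3.60, 1.59, 5.13 and 3.33 in control tumours, which spread over more than the difference between the group means.

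Genes whose strands share a seed are read here as families. The counts of each family stand beside 62.6% lower over all the microRNA genes and 80.1% over the dimmest of them. Above the median of their level lay 41.6% of all the microRNA genes. No family was tested against the rest. The largest was let-7, which promotes differentiation and is restrained by Lin28 proteins. Of 10 genes with the seed GAGGUAG, 8 fell and none rose, and the median log2 fold change was -1.15 on the deposited scale, -0.37 after quantile normalisation again, -0.29 after cyclic loess and -0.73 after median centring. It was -0.27 from the same level, with 2 genes above it. *Mirlet7f-2*, in *Huwe1* beside *Mir98*, had 1.53, 1.61, 1.66 and 1.34 in anti-VEGF tumours, against 3.99, 2.91, 3.52 and 3.37 in control tumours (log2 fold change -1.91 ± 0.22 (SE), adjusted p 0.000763 by limma). *Mirlet7e* had 5.86, 5.43, 5.32 and 5.23 in anti-VEGF tumours, against 5.36, 5.44, 5.56 and 5.18 in control tumours, with overlap and a log2 fold change of 0.08 that was -0.06 without anti-VEGF 1. So the family spanned -1.91 to 0.08.

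All 5 genes with the seed AUUGCAC fell on the deposited scale, and all 5 lay below the median of their level. Their median log2 fold change was -1.72 on the deposited scale, -0.79 after quantile normalisation again, -0.68 after cyclic loess and -1.30 after median centring. *Mir92-2* had 3.06, 2.76, 2.75 and 2.81 in anti-VEGF tumours, against 5.18, 4.33, 4.84 and 4.04 in control tumours (log2 fold change -1.75 ± 0.24 (SE), adjusted p 0.000977 by limma, 0.0254 after quantile normalisation again). The miR-181 family, known in lymphocyte development, had all 4 measured genes lower on the deposited scale and below their level, with a median log2 fold change of -0.98 on the deposited scale, -0.78 after quantile normalisation again, -0.73 after cyclic loess and -0.56 after median centring. *Mir181c* had 5.47, 5.03, 4.93 and 5.28 in anti-VEGF tumours, against 6.62, 6.48, 5.79 and 5.65 in control tumours (log2 fold change -0.96 ± 0.25 (SE), adjusted p 0.00751 by limma). *Mir181d* had 5.94, 5.77, 5.30 and 5.59 in anti-VEGF tumours, against 7.04, 6.49, 6.23 and 5.87 in control tumours. *Mir181d* no longer passed without anti-VEGF 3, anti-VEGF 4 or control 1, when its log2 fold change was -0.64 (adjusted p 0.076), -0.73 (adjusted p 0.0585) or -0.54 (adjusted p 0.0547) by limma, nor after median centring.

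Further families differed in side and distance. For the 3 genes of the miR-148 and miR-152 seed CAGUGCA, all 3 lay above the median of their level while 2 fell, and the median log2 fold change was -1.08 on the deposited scale, 0.08 after quantile normalisation again, 0.28 after cyclic loess and -0.67 after median centring. The median distance from the same level was 0.25. The 4 genes of the miR-15 and miR-16 seed had -1.33 to 0.95, with 3 lower and 1 higher, and a median that was -0.82 on the deposited scale, 0.00 after quantile normalisation again, 0.10 after cyclic loess and -0.40 after median centring. For the 4 genes with the miR-30 seed GUAAACA, 3 fell, 1 lay above the median of its level, and the median log2 fold change was -1.21 on the deposited scale, -0.53 after quantile normalisation again, -0.24 after cyclic loess and -0.79 after median centring. Their median distance was -0.32.

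The genes were also grouped by what their products are known for. The counts of each group stand beside 62.6% lower over the 219 genes and 80.1% over the dimmest of them, and beside 46.6% over all genes, and no group was tested against the rest. Of the microRNAs linked to low oxygen, 14 of 28 written names were measured, 6 fell and 1 rose, with a median log2 fold change of -0.71 on the deposited scale, -0.26 after quantile normalisation again, -0.16 after cyclic loess and -0.30 after median centring. *Mir210*, the microRNA most closely tied to hypoxia-inducible factor, had 6.02, 5.62, 5.76 and 5.66 in anti-VEGF tumours, against 5.95, 6.44, 5.49 and 5.96 in control tumours. The groups overlapped, and the log2 fold change was -0.20 ± 0.21 (SE) with an adjusted p of 0.424 by limma. It was -0.46 from the median of its level, and -0.41 (adjusted p 0.168) after quantile normalisation again, while median centring gave 0.22. *Mir26b*, *Mir103-1*, *Mir181a-2* and *Mir181b-2* of the same list had log2 fold changes of -0.72, -1.32, -1.05 and -1.0. Of these *Mir26b* did not pass, though it did without control 3, at -1.01 (adjusted p 0.00301), or without control 4, at -0.81 (adjusted p 0.0499). After quantile normalisation again *Mir103-1*, *Mir181a-2* and *Mir181b-2* had -0.27, -0.39 and -0.25. They did not pass there (adjusted p 0.545, 0.485 and 0.245 by limma).

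Of microRNAs of vessels, 11 of 26 were measured, 6 fell and 1 rose, and the median log2 fold change was -0.78 on the deposited scale, 0.12 after quantile normalisation again, 0.12 after cyclic loess and -0.36 after median centring, so its sign turned with the scaling. *Mir126a*, the main endothelial microRNA, was not analysed here. *Mir222* had 3.15, 3.22, 2.86 and 2.76 in anti-VEGF tumours, against 4.43, 3.71, 3.38 and 3.95 in control tumours (log2 fold change -0.87 ± 0.23 (SE), adjusted p 0.00879 by limma), which was 0.12 after quantile normalisation again and 0.09 from the median of its level. *Mir132*, known in neurons and in growing vessels, had 3.58, 3.80, 2.76 and 3.50 in anti-VEGF tumours, against 4.70, 4.81, 6.25 and 3.88 in control tumours, with control 3 highest (log2 fold change -1.50 ± 0.43 (SE), adjusted p 0.0118 by limma). After quantile normalisation again *Mir132* had -1.17 and did not pass (adjusted p 0.295). Of the 9 measured protein-coding endothelial markers, 1 fell and none rose.

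Of leucocyte microRNAs, 9 of 24 were measured, 4 fell and none rose, with a median log2 fold change of -0.39 on the deposited scale, 0.12 after quantile normalisation again, 0.16 after cyclic loess and 0.03 after median centring, which was 0.19 from the same level. *Mir21a*, *Mir155* and *Mir223* were not analysed here. *Mir342* and *Mir99b* fell, and *Mir142* had the values given above. *Mir29a* had 2.72, 2.09, 2.96 and 2.26 in anti-VEGF tumours, against 3.02, 3.0, 3.77 and 2.85 in control tumours (log2 fold change -0.65 ± 0.26 (SE), adjusted p 0.0445 by limma), yet it lay 0.63 above the median of its level and had 0.49 (adjusted p 0.135) after quantile normalisation again. The call was lost when any 1 of 6 arrays was left out, all but anti-VEGF 3 and control 4, with log2 fold changes of -0.81 to -0.45 over the 8 fits. Among the leucocyte markers on the same arrays, 7 of 8 macrophage genes rose, 6 of 11 granulocyte genes rose and 2 fell, and 6 of 8 lymphocyte genes fell, beside 19.1% of all genes higher and 46.6% lower. After quantile normalisation again 2 macrophage genes rose, 4 granulocyte genes rose and 1 fell, and none of the lymphocyte genes passed.

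Of 12 epithelial microRNAs measured, 8 fell and none rose on the deposited scale, a share close to that over the 219 genes, the median log2 fold change was -1.17 on the deposited scale, -0.46 after quantile normalisation again, -0.35 after cyclic loess and -0.76 after median centring, and 3 of 12 lay above the median of their level. *Mir200a* had 3.35, 3.06, 3.44 and 3.22 in anti-VEGF tumours, against 4.96, 4.89, 4.82 and 4.41 in control tumours. The log2 fold change was -1.50 ± 0.18 (SE) (adjusted p 0.000775 by limma), and -0.82 after quantile normalisation again (adjusted p 0.0184). *Mir200b*, which lies beside *Mir200a* on the same strand, had 2.72, 2.59, 2.49 and 2.36 in anti-VEGF tumours, against 3.41, 3.95, 3.58 and 3.02 in control tumours, and a log2 fold change of -0.95 ± 0.21 (SE) (adjusted p 0.00375 by limma) that was 0.19 after quantile normalisation again. *Mir200c* had 3.45, 3.22, 2.98 and 3.23 in anti-VEGF tumours, against 5.61, 4.83, 3.31 and 4.28 in control tumours, overlapping through control 3 (log2 fold change -1.29 ± 0.39 (SE), adjusted p 0.0161 by limma). After quantile normalisation again *Mir200c* had -0.47 and did not pass (adjusted p 0.593). The tumour epithelium markers had 4 genes higher and 2 lower of 9.

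Of muscle microRNAs 7 of 8 fell, with a median log2 fold change of -1.51 on the deposited scale, -0.49 after quantile normalisation again, -0.32 after cyclic loess and -1.10 after median centring. *Mir1a-2* had 1.05, 1.15, 1.13 and 1.01 in anti-VEGF tumours, against 3.69, 2.98, 3.28 and 2.27 in control tumours (log2 fold change -1.97 ± 0.27 (SE), adjusted p 0.000943 by limma, 0.0299 after quantile normalisation again). Of 9 skeletal muscle markers 4 fell. Of pancreas and liver microRNAs 5 of 10 fell, and the median was -0.75 on the deposited scale, 0.03 after quantile normalisation again, 0.12 after cyclic loess and -0.33 after median centring, on arrays where all 21 acinar markers fell. *Mir216a*, abundant in acinar cells, had 3.43, 3.01, 3.63 and 3.09 in anti-VEGF tumours, against 4.30, 3.01, 4.60 and 3.79 in control tumours (log2 fold change -0.63 ± 0.32 (SE), adjusted p 0.0962 by limma), which passed without control 2, at -0.94 (adjusted p 0.00972), and was 0.22 after quantile normalisation again. *Mir217* had a log2 fold change of -1.23 ± 0.35 (SE) (adjusted p 0.0111 by limma) and lay 0.14 from its level, and cyclic loess gave 0.14. The islet microRNA *Mir375* had 4.49, 4.67, 4.69 and 4.69 in anti-VEGF tumours, against 5.58, 5.33, 4.67 and 4.75 in control tumours (log2 fold change -0.45 ± 0.22 (SE), adjusted p 0.0925 by limma), and it passed without control 3 or control 4, at -0.59 (adjusted p 0.0239) and -0.56 (adjusted p 0.0497). The log2 fold changes of these 3 genes were closer to 0 than the median of the acinar markers, which was -4.24.

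Of nervous system microRNAs 6 of 12 fell, with a median log2 fold change of -0.69 on the deposited scale, 0.07 after quantile normalisation again, 0.06 after cyclic loess and -0.28 after median centring. Of microRNAs under p53 or in the cell cycle 7 of 13 fell and 1 rose, with a median of -1.03 on the deposited scale, -0.19 after quantile normalisation again, -0.04 after cyclic loess and -0.61 after median centring, and *Mir34a* was not analysed here. The microRNAs of the imprinted Dlk1-Dio3 region, expressed from the maternal chromosome, had 18 of 24 lower and none higher, with a median of -1.23 on the deposited scale, -0.33 after quantile normalisation again, -0.23 after cyclic loess and -0.82 after median centring. Its leading genes were *Mir376c*, *Mir329*, *Mir379* and *Mir299a*, with log2 fold changes of -1.69, -1.42, -1.55 and -1.78. None of the 24 passed after quantile normalisation again.

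Neighbouring microRNA genes are often cut from 1 primary transcript. Among the 190 genes with a known strand, 87 lay in 31 clusters, in which each gene lies within 10 kb of the next on the same strand. The remaining genes had no strand and could not be placed, so clusters that they form are missing from these counts. Among them were *Mir1a-2* and *Mir133a-1*, which lie near each other on chromosome 18. In 16 of the 31 every measured gene fell on the deposited scale. In 19 of the 31 all genes lay on 1 side of the median of their level, as did 16 of the 25 pairs. Of all the microRNA genes analysed here, 62.6% fell and 41.6% lay above the median of their level. Genes that are not neighbours would thus often share a call or a side too. Whether neighbours did so more often was not tested. *Mir181c* and *Mir181d* were the pair farthest below, and *Mir23a* and *Mir27a* the pair farthest above. *Mir99a* and *Mirlet7c-1* were next above, at 0.90 and 0.88, with log2 fold changes of 0.00 and -0.39 that did not pass, and *Mirlet7c-1* had 0.67 after quantile normalisation again. *Mir99a* had 4.55, 3.35, 3.38 and 3.48 in anti-VEGF tumours, against 3.93, 3.63, 3.45 and 3.75 in control tumours, again with anti-VEGF 1 highest, and its log2 fold change was -0.29 without that array.

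The 6 clusters of 3 or more genes were mixed. In 3 of them every gene lay on 1 side of the median of its level. Of the 15 genes of the large Dlk1-Dio3 cluster 14 fell, 4 lay above the median of their level, and log2 fold changes spanned -1.84 to 0.09. All 5 genes of the miR-302 and miR-367 cluster, known from embryonic stem cells, fell, over -2.03 to -0.82. All 5 measured genes of the miR-106a to miR-363 cluster on the X chromosome fell and lay below their level. The 3 measured *Mir450* genes fell too, with a median log2 fold change of -1.95 on the deposited scale, -0.93 after quantile normalisation again, -0.65 after cyclic loess and -1.54 after median centring. Of the pairs, *Mir200a* and *Mir200b* lay on opposite sides of their level, at -0.77 and 0.29.

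**Figure D4:**
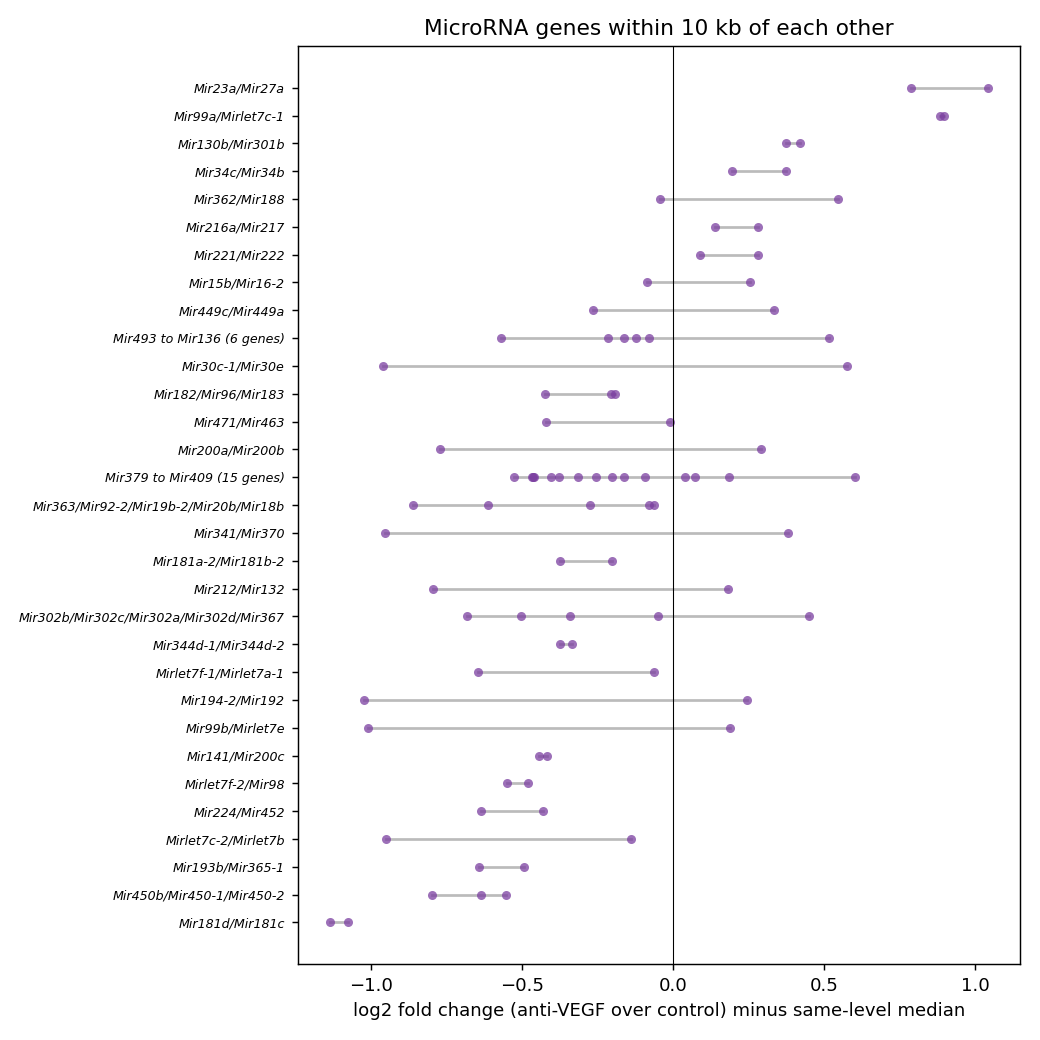
Distance from the same-level median (x axis, log2 fold change of anti-VEGF over control minus the median of 200 genes of the same level) for the genes of 31 clusters (y axis), with 1 point per gene and a line from the lowest to the highest. *Mir23a* and *Mir27a* are at the top with 1.04 and 0.79, and *Mir181d* and *Mir181c* at the bottom with -1.13 and -1.08.

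Of the 190 genes, 96 lay inside a longer gene on the same strand. Of these, 61 of the 96 fell (63.5%), against 65 of 94 others (69.1%), and the median log2 fold change was -0.92 for genes with a host and -1.11 for genes without. For 18 microRNA genes the host was measured too, on 15 hosts. In 15 of the 18 pairs the microRNA gene had the lower log2 fold change. In 3 pairs the host rose and the microRNA gene fell on the deposited scale. *Mir148b* had a log2 fold change of -1.08, against 1.41 for its host *Copz1*, which codes for a coat protein of transport vesicles. *Mir33*, which represses cholesterol export, had -1.56, against 0.78 for *Srebf2*, the master regulator of cholesterol synthesis. *Mir101b* had -1.25, against 0.89 for *Rcl1*. The call of *Srebf2* was lost without any 1 of the anti-VEGF arrays or without control 2, with 0.49 to 0.99 over the 8 fits, and after quantile normalisation again *Mir148b* had 0.04.

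Beside genes of the same level the gaps in these 3 pairs were smaller. *Mir148b*, *Mir33* and *Mir101b* were 0.16, -0.29 and 0.12 from their level, and *Copz1*, *Srebf2* and *Rcl1* 0.57, -0.05 and 0.03 from theirs. A pair that differed on both measures was *Mir139* and *Pde2a*, a phosphodiesterase gene, with -1.31 for the microRNA gene and 0.13 for its host. *Mir350* and *Cep170*, a centrosome gene, were both above their level, by 0.52 and 1.24. *Mir350* had a log2 fold change of -0.12, which was 0.40 after quantile normalisation again and 0.13 without control 3, and *Cep170* had a log2 fold change of 2.08 (adjusted p 0.00102 by limma). *Mir107* and *Pank1* had similar log2 fold changes of -0.82 and -0.90, and *Mir107* passed only without control 2 among the fits that left out 1 array, at -1.20 (adjusted p 0.00278). Over the 18 pairs the Pearson correlation of microRNA gene and host was 0.254 for log2 fold changes and 0.491 for distances from the same level, given as a description since the pairs share arrays and some share a host.

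The level that an array gives a microRNA gene went with the base composition of the hairpin. Over the 181 genes with a hairpin sequence in RefSeq, the share of G and C had a Pearson correlation of 0.672 with the mean level (Spearman 0.686), 0.506 with the log2 fold change (Spearman 0.532) and -0.006 with the distance from the same level (Spearman 0.071). These are descriptions over genes that share arrays, and genes are not independent replicates. In the tertile of hairpins with the fewest G and C (median 40.6%), 51 of 61 genes fell and the median level was 2.65. In the tertile with the most (median 56.0%), 27 of 60 fell and the median level was 4.59. The median log2 fold change was -1.42, -1.10 and -0.50 in the 3 tertiles from low to high, and the median distance from the same level -0.25, -0.08 and -0.05.

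**Figure D5:**
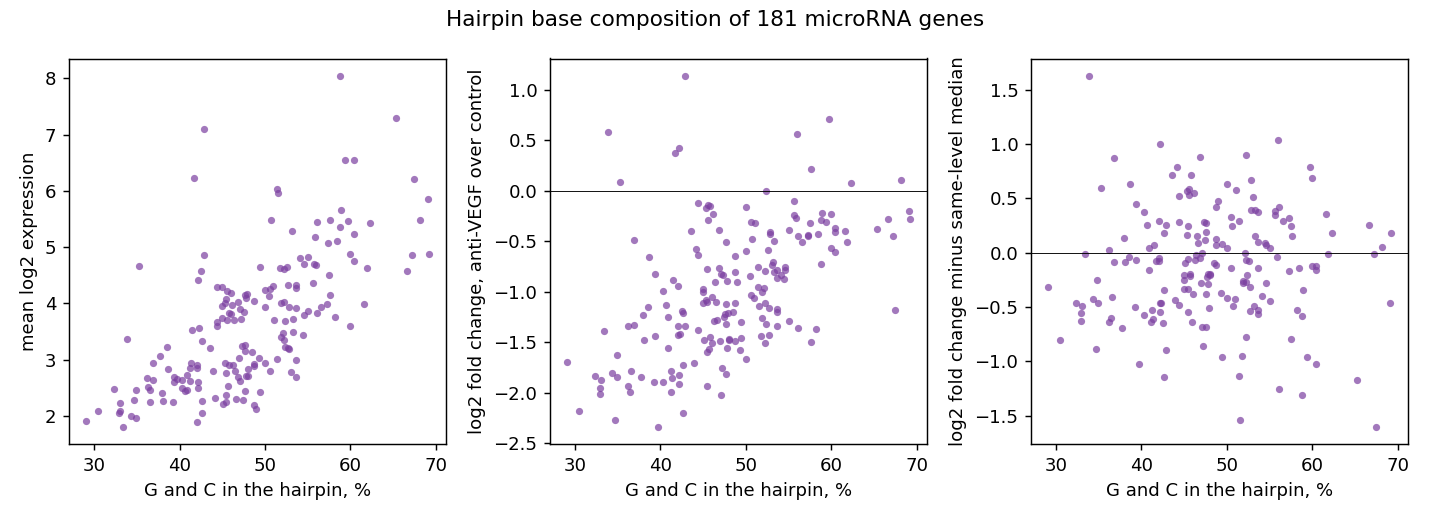
Mean log2 expression (left), log2 fold change of anti-VEGF over control (middle) and distance from the same-level median (right) on the y axes against the percentage of G and C in the hairpin (x axes) for 181 microRNA genes, with 1 point per gene. Points rise from left to right in the first 2 panels (Pearson 0.672 and 0.506) and not in the third (-0.006).

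Of the genes that make and use microRNAs, 10 of 53 written names were measured. Drosha, Dgcr8, Xpo5 and Dicer were not analysed here. Of the 10, 5 rose and none fell on the deposited scale, and 2 rose after quantile normalisation again. On the deposited scale 19.1% of all genes rose, and 51.6% of the genes of other kinds in the brightest tertile. The median distance of the 10 from their level was -0.06, with 4 above it. *Prkra*, which codes for the PACT protein that binds Dicer, had 5.78, 6.16, 6.22 and 6.22 in anti-VEGF tumours, against 5.07, 5.19, 4.99 and 5.42 in control tumours, without overlap (log2 fold change 0.93 ± 0.18 (SE), adjusted p 0.00214 by limma). It was 0.95 (adjusted p 0.0207) after quantile normalisation again and 0.84 above the median of its level. *Pabpc1*, the poly(A)-binding protein that the silencing complex acts against, had 11.30, 11.66, 11.69 and 11.60 in anti-VEGF tumours, against 10.44, 11.02, 10.18 and 10.67 in control tumours (log2 fold change 0.98 ± 0.20 (SE), adjusted p 0.00302 by limma), and passed on both scales. *Ago1*, an Argonaute, had 7.02, 7.17, 7.20 and 7.09 in anti-VEGF tumours, against 6.30, 6.32, 5.71 and 6.71 in control tumours (log2 fold change 0.86 ± 0.21 (SE), adjusted p 0.00606 by limma), but 0.27 (adjusted p 0.203) after quantile normalisation again.

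*Khsrp*, which aids processing of some precursors, and *Zswim8*, which degrades Argonaute bound to certain targets, rose on the deposited scale with 1.0 ± 0.34 (SE) and 0.75 ± 0.25 (SE), and lay -0.04 and -0.27 from the median of their level. *Khsrp* lost its call without anti-VEGF 3 or anti-VEGF 4 and *Zswim8* without anti-VEGF 1 or anti-VEGF 3, with log2 fold changes of 0.60 to 1.19 and 0.51 to 0.92 over the 8 fits, and *Zswim8* had -0.10 after quantile normalisation again. *Srrt*, *Ncbp2*, *Eif4e2*, *Lin28a* and *Zc3h12a* did not pass, with log2 fold changes of 0.44, 0.30, 0.35, -0.55 and 0.01. *Lin28a*, the inhibitor of let-7 maturation, had 4.72, 4.57, 4.63 and 4.57 in anti-VEGF tumours, against 5.91, 5.08, 4.73 and 4.97 in control tumours. Control 3 lay closest to the anti-VEGF tumours, and without it the log2 fold change was -0.70 (adjusted p 0.0188) by limma.

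Some microRNA genes have near-identical copies, and their probe sets cannot be assigned to 1 copy with certainty. The *Mir466* and *Mir467* genes are such a group. Of 18 measured, 5 fell, none rose, and 13 lay above the median of their level, and their levels spanned 2.30 to 9.75. *Mir466f-1* was the brightest of the 219 genes, with 10.21, 9.81, 9.82 and 9.78 in anti-VEGF tumours and 8.46, 10.04, 10.33 and 9.56 in control tumours. Its log2 fold change of 0.31 was -0.07 without control 1. *Mir466o*, *Mir466f-3*, *Mir467f* and *Mir325* were more than 2 below the other controls on control array 3. *Mir466o* had 6.49, 5.86, 5.54 and 5.78 in anti-VEGF tumours, against 6.63, 5.20, 1.72 and 5.55 in control tumours. Its log2 fold change of 1.14 ± 0.82 (SE), among the largest increases in size, did not pass (adjusted p 0.232 by limma), and without control 3 it was 0.12. *Mir467f* passed without control 2, at 1.74 (adjusted p 0.0246), and *Mir325* without control 3, at 0.35 (adjusted p 0.0464). These 2 genes had a second, dimmer probe set each, with a difference of 0.19 for *Mir467f* and of -0.99 for *Mir325*, where every anti-VEGF value lay below every control value.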

How the data were processed

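RNA of 4 anti-VEGF and 4 control tumours was read on 1 Affymetrix mouse gene array each. The authors deposited log2 expression values made by RMA, and the submitters' processing notes also name Transcriptome Analysis Console. How the 13266 deposited probe sets were chosen was not given in the sources used here. From GEO's platform annotation 11743 probe sets had 1 gene symbol, 800 several and 723 none, and only those with 1 were used. The brightest probe set of each gene on average stood for it, giving 11667 genes. Of the members, 7 had several probe sets among 226. Another 22 probe sets with several symbols that include a member were left out.

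Deposited values were fitted on all 11667 genes with limma 3.58.1 (R 4.3.3, lmFit and eBayes), and p-values were adjusted by Benjamini-Hochberg over all genes with a threshold of 0.05. The distance from genes of the same level used the 200 genes outside the group nearest in mean level over the 8 arrays. Alternatives were quantile normalisation again, cyclic loess, median centring, omission of the dimmest tertile, the mean of all probe sets, eBayes with trend and robust, array weights, a replicate block, 100 genes of the same level, level over the control arrays, and omission of each array in turn. On data simulated for this comparison with 50 changed genes per size among 11667 genes, the fit recovered 0, 21, 35 and 47 at log2 changes of 0.5, 1, 1.5 and 2, with 5 unchanged genes called. The simulation gave both groups the same spread and changed few genes. In the data control tumours varied more (median standard deviation 0.40, against 0.15), and 46.6% of genes were called lower and 19.1% higher. The recovery and the false calls of the real fit can therefore not be read from it.

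Sequences, positions and host genes came from RefSeq tables of GRCm38.p6, matched by gene identifier. The table of microRNA sequences held 190 of the 219 genes, and only these had a strand. Seeds were bases 2 to 8. Genes named by rule were *Mir15a*, the only increase that passed without overlap, and the 10 largest decreases that did so. To these came the 5 farthest above and below their level, and up to 4 of smallest p in each list. A fixed set of well-known microRNAs and some measured hosts were named too. The 15 genes called on both scales were added after their values were seen. Further genes were named outside these rules, among them *Mir27a*, *Mir26b*, *Mir99a*, *Mir350*, *Mirlet7e* and *Mir466f-1*. The members and lists were chosen with earlier results of these data known. No source used here says that each tumour came from a mouse of its own, so the p-values measure the spread between these samples, which may be technical. Precision is limited by there being 4 arrays a group. Tumours with the same replicate number did not deviate together in every pair (correlations 0.19, 0.126, -0.0367 and 0.163), so the numbers were not used as pairs. Figures were drawn in Python 3.11.15 with matplotlib 3.10.9.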

Additional observations from a re-analysis of the deposited data

Results flagged for a closer look

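Among the 66 microRNA genes named, 11 of 132 groups of 4 tumours had a tumour whose gap to its nearest neighbour was past Dixon's critical value as a share of the group's range. This was 8.33% of the groups. The critical value lets through about 1 in 20 of groups that are independent and not selected. These genes were named partly by their values and share the same arrays, so that rate is no yardstick here. The share of groups flagged over all genes is not given here. Anti-VEGF tumour 1 was the separate tumour in 8 of the 11. It was the highest of the 4 anti-VEGF tumours in *Mir142* at 5.57 on the log2 scale (the other 3 at 4.24 to 4.41), *Mir23a* at 5.87 (4.64 to 4.67), *Mir27a* at 6.42 (5.59 to 5.69), *Mir379* at 1.79 (1.65 to 1.67), *Mir466f-1* at 10.21 (9.78 to 9.82) and *Mir99a* at 4.55 (3.35 to 3.48). It was the lowest in *Mir186* at 2.31 (the other 3 at 4.03 to 4.21) and *Mir375* at 4.49 (the other 3 at 4.67 to 4.69). Anti-VEGF tumour 4 was highest for *Mir452*, at 2.10, against 1.43 to 1.52 in the other 3. Control tumour 3 was highest for *Mir15b*, at 4.05, against 2.52 to 2.74 in the other controls, and lowest for *Mir325*, at 4.17, against 7.20 to 7.44. Without anti-VEGF tumour 1, 132 of the 139 microRNA genes called on the deposited scale kept their call.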

How the results depend on the processing

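The counts moved most with the scaling. Against 137 microRNA genes lower and 2 higher on the deposited values, there were 17 lower and 4 higher after quantile normalisation again (24 and 9 when control 3 was also left out, an alternative chosen after seeing the data), 22 lower and 15 higher after cyclic loess and 85 lower and 9 higher after median centring. The median log2 fold change of all genes was -0.44 as deposited and -0.03, -0.02 and -0.03 under these 3 scalings. As deposited 46.6% of all genes were lower and 19.1% higher, and after quantile normalisation again 4.45% and 7.47%. The shares of all genes called under the other settings are not given here. Whether the counts under those settings differ from all genes can therefore not be read from them. Over the genes that make and use microRNAs, 5 rose as deposited, 2 after quantile normalisation again (2 without control 3), 1 after cyclic loess and 9 after median centring, and the number that fell was 0 as deposited and 1 with trend and robust, 1 with array weights. Without the dimmest tertile of genes, 26 of 83 microRNA genes fell and 31 of 83 lay above the median of their level, since fewer were tested. The number above that median was otherwise 85 to 94 of 219 under the scalings, weights and ways of choosing genes of the same level, against 91. When single arrays were left out, 1 to 3 rose, 122 to 151 fell, 86 to 99 lay above the median of their level, and 3 to 5 genes that make and use microRNAs rose and 0 to 1 fell. With a replicate block, 146 microRNA genes fell and 2 rose, 91 lay above the median of their level, and 5 genes of the pathway rose and 0 fell. The replicate numbers did not pair the tumours (correlations 0.19, 0.126, -0.0367 and 0.163), and the block moved no count past 1.5 times. Of 57 named genes called on the deposited values, 39 lost their call after quantile normalisation again, 37 after cyclic loess and 13 after median centring, and over the 8 fits with single arrays left out 27 calls were lost.

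The sign turned after quantile normalisation again and after cyclic loess, giving -0.21 and -0.26 for *Eif4e2*, 0.043 and 0.096 for *Mir148b*, 0.19 and 0.20 for *Mir200b*, 0.22 and 0.29 for *Mir216a*, 0.12 and 0.12 for *Mir222*, 0.49 and 0.56 for *Mir29a*, 0.40 and 0.52 for *Mir350*, -0.25 and -0.57 for *Mir466f-1*, 0.95 and 1.17 for *Mir466n*, 0.67 and 0.88 for *Mirlet7c-1*, -0.016 and -0.039 for *Ncbp2*, -0.38 and -0.44 for *Srrt*, and -0.10 and -0.16 for *Zswim8*. After cyclic loess alone it was 0.17 for *Mir101b*, 0.24 for *Mir15b*, 0.14 for *Mir217*, -0.090 for *Mir466f-3*, -0.065 for *Srebf2* and -0.058 for *Zc3h12a*. Median centring gave 0.14 for *Aatk*, 0.12 for *Mir139*, 0.22 for *Mir210*, 0.29 for *Mir350*, 0.24 for *Mir466n* and 0.025 for *Mirlet7c-1*, and array weights 0.28 for *Mir350*, -0.056 for *Mir466f-3*, -0.24 for *Mir99a*, -0.024 for *Mirlet7e* and -0.071 for *Zc3h12a*. Over the fits with 1 array left out, the log2 fold change spanned -0.83 to 0.11 for *Mir139* (sign turned without control 1), -0.43 to 0.13 for *Mir350* (sign turned without anti-VEGF 4 or control 3), -0.073 to 0.55 for *Mir466f-1* (sign turned without control 1), -0.29 to 0.11 for *Mir99a* (sign turned without anti-VEGF 1 or control 2 or control 3), -0.056 to 0.15 for *Mirlet7e* (sign turned without anti-VEGF 1) and -0.12 to 0.13 for *Zc3h12a* (sign turned without anti-VEGF 1 or control 3). The cause of these differences was not tested. Many of the genes were close to the lower end of the scale, where 4 arrays a group limit the precision, and how far each signal stood above background could not be read from the deposited values.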

Other observations

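Another 22 probe sets of the array carry the name of a microRNA gene numbered below 500 together with other symbols and were left out of the counts above, since a signal cannot be given to 1 of their genes. Of these, 16 carry microRNA names only. The difference between the mean log2 values of anti-VEGF and control tumours had a median of -0.69 over the 22, with a range of -2.68 to 1.31, and it was below 0 in 15. Their median level was 4.07 on the log2 scale. A log2 fold change below 0 was found in 198 of the 219 genes and in 7640 of all 11667 genes. No test was made of these shares.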
